A study of Mus musculus with 7 samples.

Results

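Subunits of Polycomb repressive complex 2 (PRC2) were followed in mouse embryonic stem cells (ESCs) that had lost the distal super-enhancer of Sox2. The 8 genes Suz12, Ezh2, Ezh1, Eed, Jarid2, Mtf2, Phf19 and Aebp2 were found by their names in the GENCODE M1 annotation of mm9, among 31498 genes with at least 200 exonic bases of their own. Of the 8 genes, 7 had a mean of at least 5 FPKM over the RNA-seq libraries, as did 9521 genes in all. FPKM is here the number of alignments per kilobase of exonic sequence, scaled to all alignments on genes of the library. Ezh1, at a mean of 4.51 FPKM, was below this level and is not among the 9521 background genes. It is included where counts are given of 8.

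RNA-seq was available for 4 clones of F123, an ESC line from a first-generation cross of Mus musculus castaneus (CAST) with a 129 strain. The wild type clone kept the super-enhancer on both alleles (CAST+/129+). The CAST+/129- clone lacked the 129 copy, the CAST-/129+ clone lacked the CAST copy, and the CAST-/129- clone lacked both. The deletions were made by transfection of Cas9 with a pair of guide RNAs, and clones were raised on puromycin-resistant mouse embryonic fibroblasts before passages on gelatin without feeder cells. Each genotype was 1 clone and 1 library, so that the genotype and the clone cannot be told apart and no difference between genotypes could be tested. ChIP-seq was available for H3K4me3 and H3K27ac in unedited F123 cells and for H3K27ac in unedited J1 cells, an ESC line of 129 background, with 1 library for each. No mark was measured in the mutant clones.

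PRC2 methylates lysine 27 of histone H3 and keeps developmental genes silent in ESCs. SUZ12, EED and a SET domain enzyme, EZH2 or EZH1, belong to its core. The histone chaperone genes Rbbp4 and Rbbp7 are also genes of PRC2 and were counted apart, with the other genes of the complex. The core joins either a Polycomb-like protein such as MTF2 or PHF19, which helps it to bind CpG islands, or the pair JARID2 and AEBP2, which recognise ubiquitinated histone H2A and stimulate the enzyme. EZH2 is the more active enzyme and prevails in dividing cells, whereas EZH1 prevails in many resting cells.

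The number of distinct alignments on genes was 24891864 in wild type against 12486398 for CAST+/129-, 6078945 for CAST-/129+ and 5847451 for CAST-/129-. Sox2 itself was at 174.4 FPKM in wild type, and the CAST+/129-, CAST-/129+ and CAST-/129- clones held 46.9%, 41.8% and 4.23% of that. Of 10 ESC markers, 8 were below wild type in CAST-/129-, against 57.2% of the 9521 genes. These 8 ranged from 28.2% at Zfp42, 29.9% at Nanog and 41.7% at Fgf4 to 86.6% at Pou5f1. Dnmt3l (130.9%) and Lin28a (207.1%) were above wild type. Fibroblast markers summed to 26.9 FPKM over 15 genes in wild type against 89.5 for CAST+/129-, 91.1 for CAST-/129+ and 487.2 for CAST-/129-, with 2 of the 15 listed at 0 in wild type and none in the clones. All 15 were above wild type in CAST-/129-. Col1a1, the fibroblast collagen, was at 3.47 FPKM in wild type against 38.9, 38.8 and 174.0 in CAST+/129-, CAST-/129+ and CAST-/129-, and so made up much of the sums of the monoallelic clones. Thy1, the highest of the 15 in wild type at 11.4 FPKM, went the other way in these clones, at 5.68 and 6.26, and was at 27.6 in CAST-/129-. The part of these transcripts in the values of the PRC2 genes was not tested. In bulk RNA, fewer cells of a type and less RNA per cell cannot be told apart.

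In wild type cells the core and accessory genes covered a wide range of levels. Suz12 was highest at 87.5 FPKM (85.9 to 89.2, exact 95% Poisson interval of the count, which covers counting error only). Eed at 74.2 (72.0 to 76.5) and Mtf2 at 72.5 (71.0 to 74.0) followed and could not be ordered, as their intervals overlapped. Jarid2 was at 66.7, Ezh2 at 32.2, Aebp2 at 24.0, Phf19 at 12 and Ezh1 at 5.99 FPKM, and none of these intervals overlapped. These levels depend on which bases are counted, because rarely used exons add length. Over the exons of transcript 001 of each gene alone, Jarid2 was highest at 106.7 FPKM, before Suz12 at 99.0, Mtf2 at 88.5, Eed at 79.7 and Ezh2 at 74.9, and Aebp2, Phf19 and Ezh1 stayed the lowest at 35.7, 15.9 and 10.6 FPKM. Ezh1 was thus the least abundant of the 8 genes on either count of bases.

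**Figure D1:**
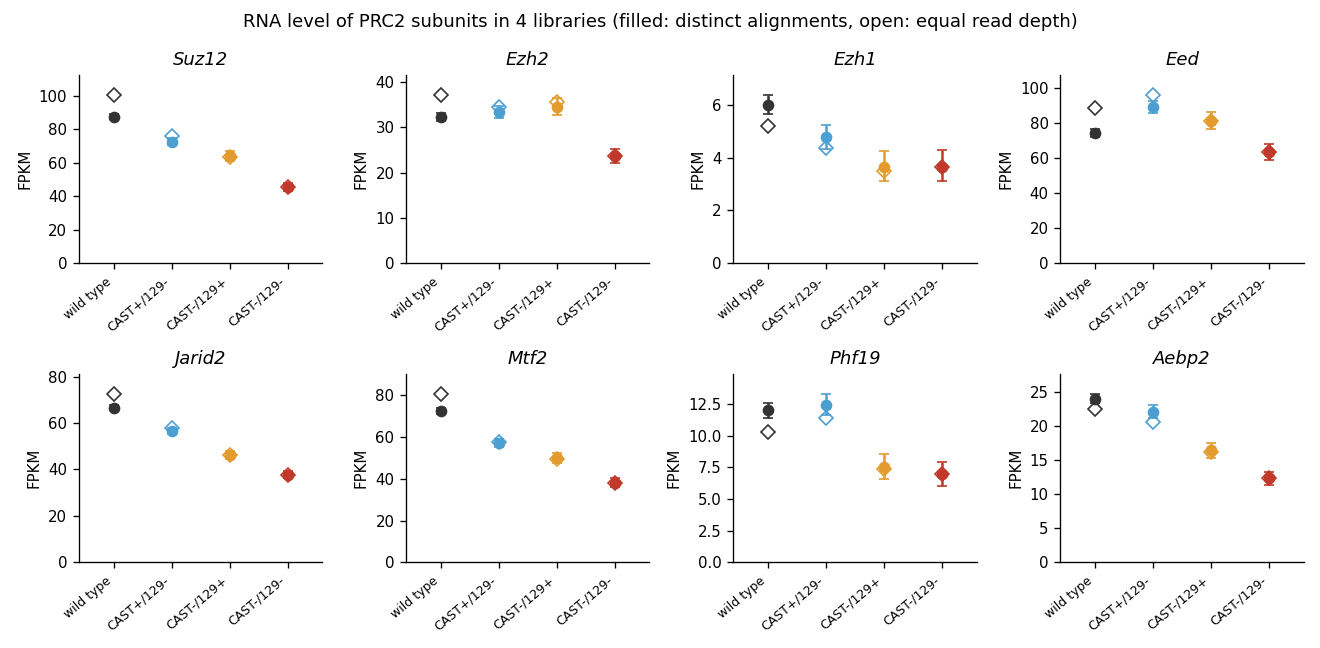
FPKM (vertical axis, from 0, own scale per gene) of the 8 PRC2 subunit genes in the wild type, CAST+/129-, CAST-/129+ and CAST-/129- libraries. Filled points are distinct alignments with exact 95% Poisson intervals, and open diamonds are the same libraries thinned to an equal number of reads; the CAST-/129- library is the lowest of the 4 for every gene except Ezh1, where it is level with CAST-/129+.

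All 8 starts carried H3K4me3, a mark of active promoters, in F123 cells. The 5′ ends of distinct alignments within 2 kb of the start were at least 5 times the library mean at 8 of 8 PRC2 genes, against 46.2% of 22350 protein-coding genes. H3K4me3 was highest at Aebp2 (29.7 times the mean, 26.6 to 33.2), Suz12 (25, 22.1 to 28.2), Eed (20.7, 18.1 to 23.6) and Ezh2 (20, 17.4 to 22.8). Jarid2 (16.1, 13.8 to 18.7) and Mtf2 (14.0, 11.9 to 16.5) came between. It was lowest at Phf19 (9.48, 7.73 to 11.5) and Ezh1 (6.41, 4.99 to 8.12). Of all protein-coding starts 0.738% were higher than Aebp2, and 40.6% were higher than Ezh1.

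H3K27ac, a mark of active promoters and enhancers, passed 5 times the mean at fewer of the 8 starts. In F123 cells 6 of 8 starts were at least 5 times the mean, against 28.7% of all starts, and in J1 cells the same 6, against 22.9%. Ezh1 and Phf19 were the exceptions in both lines. Ezh1 was at 2.51 times the mean in F123 (0.922 to 5.47, 6 alignments) and 4.78 in J1 (3.61 to 6.20), and Phf19 at 4.19 (2.01 to 7.70, 10 alignments) and 3.16 (2.22 to 4.35). The intervals of both genes in F123 and of Ezh1 in J1 reached past 5, so that by counting error only Phf19 in J1 was below that level. Among the other genes, the F123 value was 82.9 at Aebp2 (71.8 to 95.3), 51.9 at Eed, 42.7 at Ezh2 (34.8 to 51.8), 35.6 at Suz12 (28.4 to 44.0), 28.5 at Jarid2 (22.1 to 36.1) and 17.2 at Mtf2. In J1 cells Aebp2 (20.1), Ezh2 (19.5), Eed (19.4), Jarid2 (18.0) and Suz12 (16.3) had intervals that all overlapped, and Mtf2 was again the lowest of the 6 at 11.3 (9.42 to 13.4). Levels of different libraries were not compared, since no input was analysed here. The 2 genes with weak acetylation were also those with the lowest RNA.

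**Figure D2:**
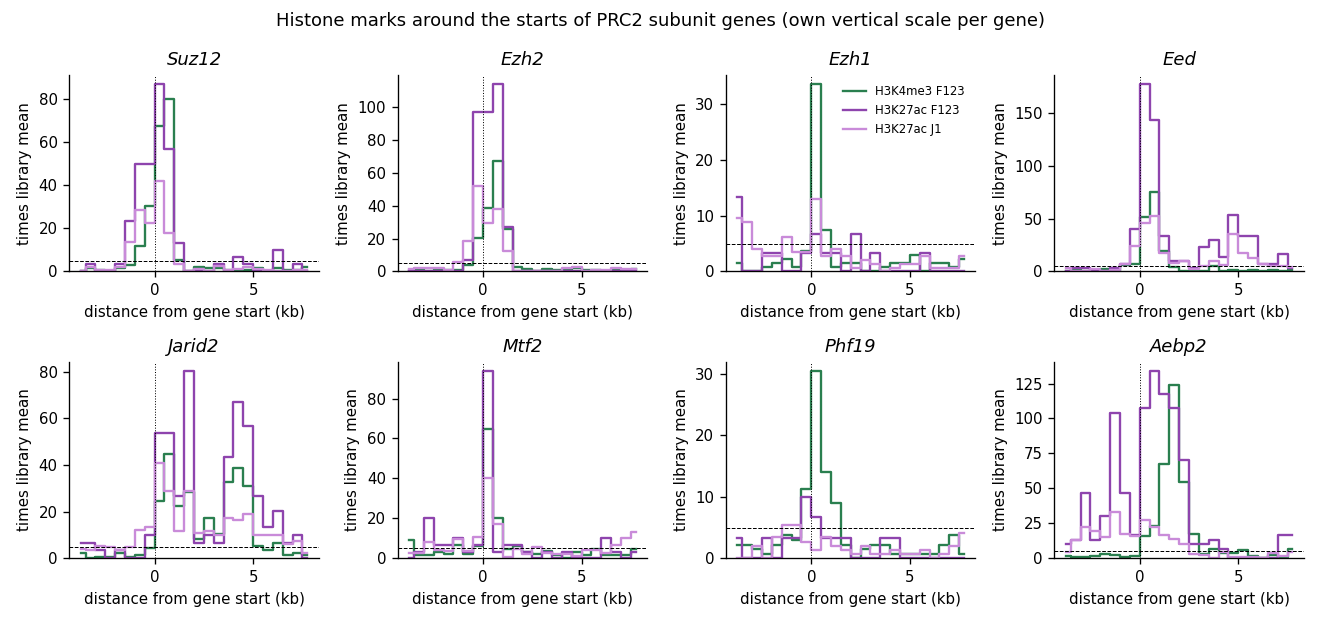
H3K4me3 in F123 cells and H3K27ac in F123 and J1 cells in 500-base bins from 4 kb before to 8 kb after the annotated start of each PRC2 gene (horizontal axis, kb in the direction of transcription). The vertical axis gives times the mean of the same library with its own scale per gene, and the dashed line marks 5 times; Ezh1 and Phf19 show an H3K4me3 peak with little H3K27ac, and Jarid2 and Aebp2 show broad domains.

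CpG content before the GENCODE starts did not order the genes as the marks did. The 250 bases before 4 core gene starts are given because they set the most and the least acetylated of these genes side by side. They were read from NCBIM37 (mm9) 5′ to 3′ on the strand of the gene, and CpG dinucleotides are in capitals. No exon of GENCODE M1 overlaps them.
Suz12 (chr11:79806358-79806607, plus strand): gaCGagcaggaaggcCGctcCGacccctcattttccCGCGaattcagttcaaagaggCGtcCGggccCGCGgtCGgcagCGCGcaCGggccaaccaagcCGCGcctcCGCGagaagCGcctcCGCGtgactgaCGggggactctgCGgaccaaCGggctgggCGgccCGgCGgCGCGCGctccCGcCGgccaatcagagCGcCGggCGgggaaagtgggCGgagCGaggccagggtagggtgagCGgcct
Ezh2 (chr6:47545341-47545590, minus strand): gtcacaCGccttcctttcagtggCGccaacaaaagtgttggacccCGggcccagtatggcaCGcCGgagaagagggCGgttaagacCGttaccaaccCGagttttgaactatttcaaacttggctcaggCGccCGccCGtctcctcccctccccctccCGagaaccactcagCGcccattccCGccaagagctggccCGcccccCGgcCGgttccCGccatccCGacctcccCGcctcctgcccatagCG
Ezh1 (chr11:101087778-101088027, minus strand): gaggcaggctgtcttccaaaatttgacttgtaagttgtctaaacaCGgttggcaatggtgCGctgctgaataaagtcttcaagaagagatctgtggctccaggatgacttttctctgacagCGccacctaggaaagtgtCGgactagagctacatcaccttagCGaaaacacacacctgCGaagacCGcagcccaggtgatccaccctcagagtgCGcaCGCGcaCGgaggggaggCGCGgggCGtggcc
Eed (chr7:97129494-97129743, minus strand): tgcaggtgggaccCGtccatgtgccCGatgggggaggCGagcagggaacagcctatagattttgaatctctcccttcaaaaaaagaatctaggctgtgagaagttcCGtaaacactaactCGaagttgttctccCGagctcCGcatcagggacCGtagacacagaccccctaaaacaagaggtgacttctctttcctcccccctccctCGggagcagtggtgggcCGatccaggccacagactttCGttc

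Suz12 had 37 CpG dinucleotides in this window and Ezh2 had 21, against a median of 8 over 22350 protein-coding starts. Only 2.15% of starts held more than Suz12. Ezh1 had 14 and Eed had 11. Eed was thus poorer in CpG than Ezh1. Its F123 H3K27ac value was the highest of the core genes given above (51.9 times the mean, 43.2 to 61.9, overlapping the interval of Ezh2). Among the accessory genes, weakly acetylated Phf19 had 31 CpG, a number that only Suz12 exceeded among the 8, and Mtf2 had 23. The GENCODE starts of Jarid2 and Aebp2 held only 4 and 1, and both lie upstream of other annotated starts of the same gene. Before the Jarid2 RefSeq starts, 1300 and 1797 bases after the GENCODE start, the 250 bases held 23 and 22 CpG. Before the Aebp2 RefSeq starts, 214, 2460 and 4436 bases after the GENCODE start, they held 1, 14 and 3. For these 2 genes the count thus depends on the start chosen. The RefSeq start of Ezh2 also lies 311 bases after the GENCODE start used above, and the 250 bases before it held 23 CpG. The first GENCODE interval of Ezh2 held 14 wild type alignments, against 213 in the next.

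In 12 RefSeq promoters of the 8 genes (300 bases each, GRCm38.p6, all found once and unchanged in NCBIM37), the letters CATTGTT, a core motif of Sox proteins, were found on neither strand, and 3.78% of 32851 RefSeq promoters held them. The letters CCAAT were in 7 of the 12 on either strand, from Aebp2, Eed, Ezh2, Jarid2, Mtf2 and Suz12, against 37.4% of all promoters. The letters GGGCGG were in 7 of the 12, from Aebp2, Jarid2, Mtf2, Phf19 and Suz12, against 35.7%. Such matches describe letters and not binding.

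Of the 8 genes, Jarid2 and Aebp2 had the widest H3K4me3 domains, and with Eed the widest H3K27ac domains. H3K4me3 around the Jarid2 start stayed past 5 times the mean over 5500 bases, and 0.988% of the 10326 marked starts had a wider domain. Aebp2 had 4000 bases, against a median of 2000. H3K27ac covered 8000 bases at Jarid2, 9500 at Aebp2 and 8500 at Eed in F123, and 9000, 7500 and 9500 in J1, against a median of 2500 in both lines. In F123 a bin passed with as few as 2 alignments (6.7 times the mean), so that these widths rest partly on few counts. The F123 run at Eed joined the start to a second stretch across a bin with 1 alignment. At Eed the H3K4me3 domain was 3000 bases wide. At Aebp2 the highest H3K4me3 bin lay 1500 to 2000 bases after the annotated start, at 124.2 times the mean. The RefSeq start 2460 bases after it was at 37.5 times the mean in H3K4me3 (34.0 to 41.4) and 60.3 in F123 H3K27ac (50.8 to 71.0). At Jarid2 the start of transcript 001, 1797 bases after the gene start, was at 21.4 times the mean in H3K4me3 (18.7 to 24.3). A second annotated Jarid2 start 111217 bases after the gene start was at 2.14 in H3K4me3 (1.36 to 3.21), 2.09 in F123 H3K27ac and 2.56 in J1 H3K27ac, and its first exon held 0 RNA alignments in all 4 libraries. The exon at the Aebp2 RefSeq start 2460 bases after the gene start also held 0 in all 4. The 2 kb around that start take in the highest Aebp2 bin. H3K4me3 was at 17.1 times the mean from 2500 to 3000 bases and 2.97 from 3000 to 3500. The marks of that start can thus not be told apart from those of the bins before it. In all, 11 of the 138 exonic intervals of the 8 genes held 0 in all 4 libraries, so that a count of 0 was not particular to the Jarid2 start. The 58871 intronic bases of Ezh2 held 0, 0, 2 and 0 alignments in wild type, CAST+/129-, CAST-/129+ and CAST-/129-. Whether the deposited alignments cover every annotated interval was not tested, so that a 0 does not show a start to be unused.

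Mtf2 had an acetylated site inside the gene. A RefSeq start 12491 bases after the gene start was at 36.8 times the mean in F123 H3K27ac (29.6 to 45.4) and 24.4 in J1 H3K27ac (21.6 to 27.4), both above the values of the gene start (17.2, 12.3 to 23.3, and 11.3, 9.42 to 13.4). H3K4me3 there was 1.95 times the mean (1.21 to 2.98), against 14.0 at the gene start (11.9 to 16.5). The 250 bases before it, from RefSeq and placed on NCBIM37, are given because this window held 2 CpG dinucleotides (in capitals) where the gene start held 23.
Mtf2 internal start (chr5:108506934-108507183, plus strand): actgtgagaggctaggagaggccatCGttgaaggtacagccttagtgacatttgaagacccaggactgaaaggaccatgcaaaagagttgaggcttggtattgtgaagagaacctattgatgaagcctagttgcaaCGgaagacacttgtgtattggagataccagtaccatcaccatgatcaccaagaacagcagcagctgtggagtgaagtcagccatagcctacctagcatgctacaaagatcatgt

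A second acetylated stretch was seen after the Eed start, where H3K4me3 was low in most bins. The bin 4500 to 5000 bases into Eed was at 53.6 times the mean in F123 H3K27ac (16 alignments) and 35.5 in J1 (52 alignments), with 1.49 in H3K4me3 (2 alignments). Nearer to the start, the bin from 3500 to 4000 bases was at 5.2 in H3K4me3 (7 alignments) and 30.1 in F123 H3K27ac (9 alignments). These bins and the Mtf2 site were chosen after the profiles were seen.

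The RNA of all 8 genes was lower in CAST-/129- than in wild type. The log2 ratio of FPKM plus 4 was between -0.89 at Suz12 and -0.22 at Eed, with a median of -0.66. Over the 9521 background genes the median was -0.08, and 57.2% were below wild type. Of the 8 genes, 4 were at least 1.5-fold lower by this ratio (Suz12, Mtf2, Aebp2 and Jarid2), against 15.3% of the background. By distinct alignments Phf19 and Ezh1 stood at 57.9% and 61.0% of wild type FPKM, and there only the added 4 kept them short of 1.5-fold. At equal depth they stood at 67.1% and 70.2%, and by reads at 71.6% and 71.0%, short of 1.5-fold without it. No background share was counted without the added 4. None was 1.5-fold higher, against 9.87%, and none passed 3-fold, against 3.96%. The wild type library is shared by all 3 comparisons, so that its error enters each of them.

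By the median and the counts, the clones with 1 deleted copy differed from wild type less, though Eed in CAST+/129- (0.25) and Ezh1 in CAST-/129+ (-0.39) lay as far from it as in CAST-/129- (-0.22 and -0.38). In CAST-/129+ 6 of 8 genes were below wild type with a median of -0.45, and 0 were 1.5-fold lower (background 12.2%), 0 were 1.5-fold higher (10.1%) and 0 passed 3-fold (2.39%). There too Ezh1 (60.9% of wild type FPKM) and Phf19 (63.0%) fell short of 1.5-fold by distinct alignments only through the added 4. At equal depth (67.2% and 71.7%) both fell short without it. In CAST+/129- 5 of 8 were below wild type with a median of -0.15, and again 0 were 1.5-fold lower (background 8.93%), 0 were 1.5-fold higher (7.57%) and 0 passed 3-fold (1.86%). Below wild type stood 54.5% of background genes in CAST-/129+ and 48.9% in CAST+/129-. The medians of the background genes on the 6 chromosomes that carry the 8 genes lay between -0.10 and 0.08 in the 3 clones.

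The sizes of these ratios depended on the counting unit. The deposited alignments are collapsed where identical, and the wild type library was the deepest, with 86875622 reads against 13926273 in CAST-/129-. Suz12 exon intervals shorter than 150 bases stood at a median of 91.7% of wild type in CAST-/129-, and longer ones at 50.1%, whereas by reads before collapsing the medians were 38.9% and 40.1%. For Ezh2 the shorter and longer intervals differed little, at 80.6% and 75.7%, and both were lower by reads, at 57.4% and 56.7%. Which unit lies nearer to the true ratio was not tested. With every library thinned to 13926273 reads and collapsed again, 4 of 8 genes were 1.5-fold lower in CAST-/129- (background 10.7%) and 3 in CAST-/129+ (Suz12, Jarid2 and Mtf2, background 8.90%). In CAST+/129- the lowest ratio at equal depth was -0.46, at Mtf2. At this equal depth all 8 genes were below wild type in CAST-/129+ and CAST-/129-, and 6 of 8 in CAST+/129-. The share of background genes below wild type was not counted at equal depth. Their median log2 ratio there was 0.06 in CAST+/129-, 0.03 in CAST-/129+ and -0.0 in CAST-/129-. For the less abundant Ezh1, Phf19 and Aebp2 equal depth moved the CAST-/129- value toward wild type, and for the other 5 genes away from it. By reads before collapsing Ezh2 (-0.72) and Eed (-0.63) were also at least 1.5-fold lower in CAST-/129-, which made 6 of 8 (background 10.2%). Of the 8 genes, 0 were at least 2-fold lower in CAST-/129- by distinct alignments (background 4.88%), 2 at equal depth (Suz12 and Mtf2, background 3.62%) and 3 by reads (with Jarid2, background 3.64%).

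**Figure D3:**
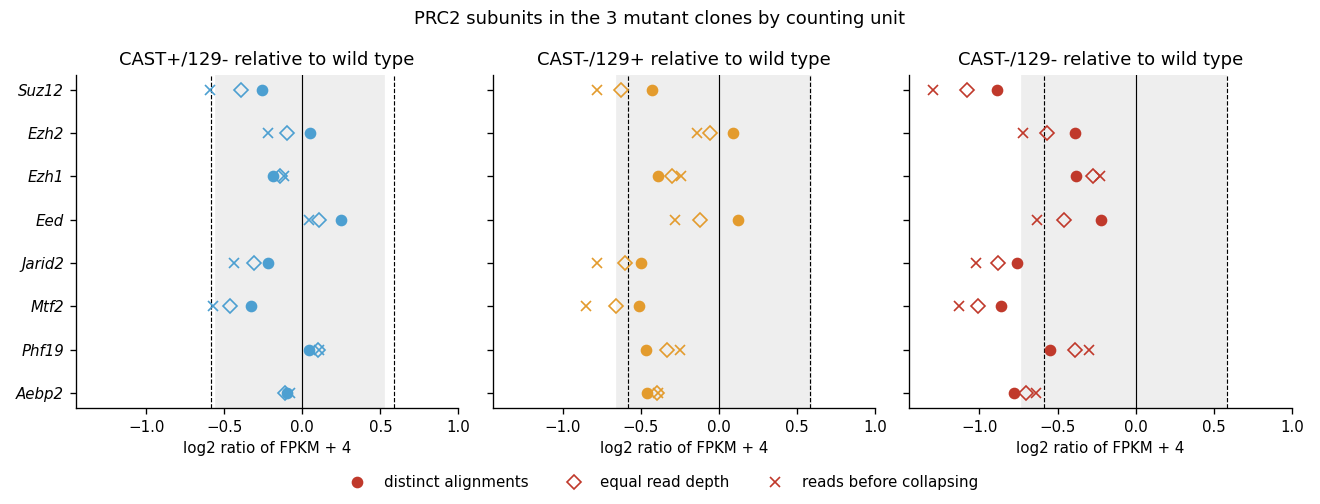
log2 ratio of FPKM plus 4 relative to wild type (horizontal axis) for each PRC2 gene in the CAST+/129-, CAST-/129+ and CAST-/129- clones, by distinct alignments (filled), at equal read depth (diamonds) and by reads before collapsing (crosses). Dashed lines mark 1.5-fold and the grey band holds the middle 80% of 9521 background genes; in CAST-/129- every symbol is left of 0, and Suz12, Mtf2, Jarid2 and Aebp2 are past the 1.5-fold line by all 3 counts.

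Suz12, the core subunit that holds the complex together, was at 87.5 FPKM in wild type against 72.5 for CAST+/129-, 64.0 for CAST-/129+ and 45.3 for CAST-/129-. It was lower in each clone than in wild type, and lowest where both copies were deleted. CAST-/129- held 51.8% of the wild type level (48.9 to 54.9, exact 95% binomial interval of the ratio of counts), 45.2% at equal depth and 38.4% by reads. At equal depth the monoallelic clones were at 75.4% and 63.2%. Because both mates of a read pair and the segments of a spliced read are listed apart, counts are not all independent, and with each count divided by 4 this interval was 46.1 to 58.2. Against the monoallelic clones CAST-/129- held 62.5% of CAST+/129- (58.7 to 66.5) and 70.8% of CAST-/129+ (66.0 to 76.0). All 14 Suz12 exon intervals with at least 100 wild type alignments were below wild type in CAST-/129- by reads, between 31.0% and 53.8%. By distinct alignments 11 of the 14 were below wild type there, and the 14 ranged from 37.2% to 129.7%.

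Ezh2, the main methyltransferase, was at 32.2 FPKM in wild type against 33.4 for CAST+/129-, 34.5 for CAST-/129+ and 23.7 for CAST-/129-. The monoallelic clones were close to wild type, with 103.7% (98.9 to 108.8) and 107.3% (100.8 to 114.0), and only the clone without either copy was lower, at 73.5% (68.3 to 79.1). At equal depth the 3 clones were at 92.6%, 95.8% and 63.7%, so that the side of wild type on which the monoallelic clones lie depends on the count. By reads, all 18 Ezh2 exon intervals with at least 100 wild type alignments were lower in CAST-/129-, from 37.9% to 76.8%. By distinct alignments 17 of the 18 were lower there, and the 18 ranged from 46.5% to 115.3%.

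Ezh1, the second enzyme, was at 5.99 FPKM in wild type against 4.76 for CAST+/129-, 3.65 for CAST-/129+ and 3.65 for CAST-/129-. It was lower in all 3 clones, at 79.4% (70.9 to 88.7), 60.9% (51.4 to 71.7) and 61.0% (51.3 to 72.1), and CAST-/129+ and CAST-/129- did not differ beyond counting error. The 3 clones were at 84.0%, 67.2% and 70.2% at equal depth. The values of CAST-/129+ and CAST-/129- rest on 165 and 159 alignments, against 1110 in wild type. Wild type Ezh2 stood at 5.37 times the FPKM of Ezh1 (5.03 to 5.73), and the multiple was 7.01 for CAST+/129- (6.34 to 7.78), 9.46 for CAST-/129+ (8.04 to 11.2) and 6.47 for CAST-/129- (5.46 to 7.71). At equal depth the multiples were 7.13 in wild type (6.27 to 8.14), 7.87 for CAST+/129- (6.80 to 9.15), 10.2 for CAST-/129+ (8.5 to 12.3) and 6.47 for CAST-/129- (5.46 to 7.71), and by reads 9.36, 9.44, 12 and 7.42. Only in CAST-/129+ was the multiple higher than in wild type beyond the printed intervals both by distinct alignments and at equal depth. Wider intervals with counts divided by 4 were not computed for the multiple. In CAST+/129- the intervals overlapped at equal depth, and CAST-/129- was above wild type by distinct alignments and below it at equal depth and by reads. Over transcript 001 alone the ratios were 7.07, 9.22, 12.5 and 8.53, in the same order of libraries.

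Eed, the subunit that reads trimethylated lysine 27, was at 74.2 FPKM in wild type against 89.3 for CAST+/129-, 81.2 for CAST-/129+ and 63.4 for CAST-/129-. By distinct alignments it was the gene closest to wild type in CAST-/129-, at 85.4% (79.1 to 92.1), whereas by reads it was at 63.3%, below Ezh1 (71.0%) and Phf19 (71.6%). It was above wild type in both monoallelic clones, at 120.3% (114.4 to 126.5) and 109.4% (102.3 to 117.0). At equal depth the values were 108.2%, 91.6% and 71.4%. CAST-/129+ thus changed sides, and CAST+/129- stayed above wild type.

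Mtf2, the Polycomb-like subunit most abundant here, was at 72.5 FPKM in wild type against 57.0 for CAST+/129-, 49.9 for CAST-/129+ and 38.1 for CAST-/129-. The order of the libraries was the same as for Suz12, with 78.7% (75.8 to 81.7), 68.8% (65.2 to 72.6) and 52.6% (49.5 to 55.9) relative to wild type. At equal depth the 3 clones were at 71.5%, 61.5% and 47.3%. All 17 Mtf2 exon intervals with at least 100 wild type alignments were lower in every clone by reads. By distinct alignments 7 of the 17 were lower in CAST+/129-, 14 in CAST-/129+ and 14 in CAST-/129-.

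Phf19, its paralog, was at 12 FPKM in wild type against 12.4 for CAST+/129-, 7.55 for CAST-/129+ and 6.93 for CAST-/129-. CAST+/129- did not differ from wild type beyond counting error (103.9%, 95.1 to 113.3), and the other two clones were lower, at 63.0% (54.6 to 72.4) and 57.9% (49.7 to 67.0). At equal depth they held 71.7% and 67.1%, and CAST-/129- did not differ beyond counting error from CAST-/129+ (91.8%, 75.7 to 111.3).

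Phf19 exons did not move together in CAST-/129-. Exons 11 and 12 of transcript 001, at 34755103 to 34755264 and 34754444 to 34754531 on chromosome 2 (mm9), held 119 and 60 alignments in wild type, 42 and 37 in CAST+/129-, 14 and 5 in CAST-/129+, and 1 and 0 in CAST-/129-. At the wild type rate CAST-/129- would have held 28 and 14.1. It stood at 3.58% of wild type on exon 11 (0.0898 to 20.3), and the count of 0 on exon 12 leaves an upper bound of 27%. Exon 13 held 9 alignments in CAST-/129- (72.3% of wild type, 31.3 to 147.8), exon 14 held 16 (121.6%, 65.1 to 215.1) and the last exon held 114 (62.1%, 50.5 to 75.6). Exon 10 before them held 4 alignments (40.5%, 10.6 to 111.7). These exons were chosen after their values were seen, among 15, and the cause of their low counts was not tested.

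**Figure D4:**
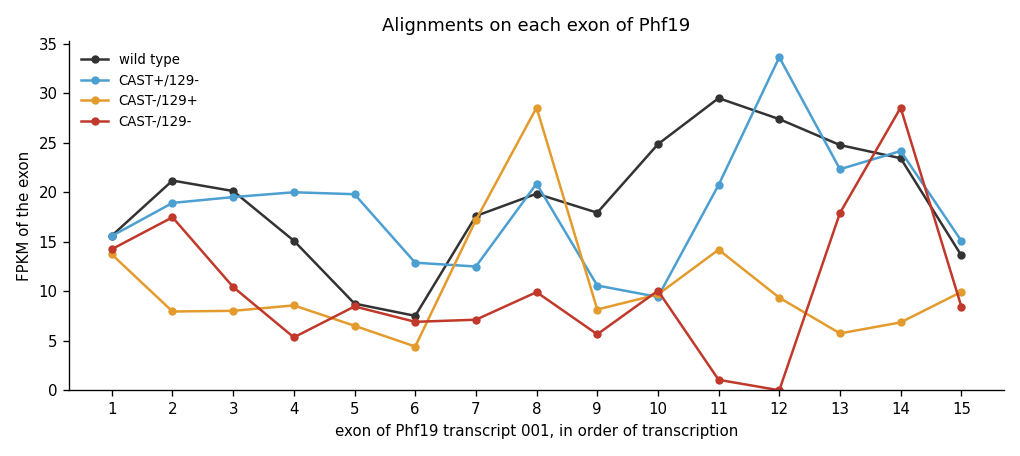
FPKM of each exon of Phf19 transcript 001 (vertical axis, from 0) in order of transcription (horizontal axis, exons 1 to 15) in the 4 RNA-seq libraries. The CAST-/129- line drops to 1 alignment on exon 11 and 0 on exon 12 and is above 15 FPKM on exons 13 and 14.

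Jarid2, which directs PRC2 to its targets in ESCs, was at 66.7 FPKM in wild type against 56.6 for CAST+/129-, 46.1 for CAST-/129+ and 37.7 for CAST-/129-. It was lower in each clone, at 84.8% (82.5 to 87.3), 69.0% (66.3 to 71.9) and 56.5% (54.0 to 59.2). At equal depth these were 79.8%, 63.9% and 52.0%. All 17 Jarid2 exon intervals with at least 100 wild type alignments were below wild type in CAST-/129- by reads, from 37.3% to 99.8%. The highest of these was an interval of 161 bases at a RefSeq start, with 110 alignments in wild type and 23 in CAST-/129-. By distinct alignments all 17 were below wild type too, from 44.6% to 95.5%.

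Aebp2, the zinc finger partner of JARID2, was at 24.0 FPKM in wild type against 22.1 for CAST+/129-, 16.4 for CAST-/129+ and 12.3 for CAST-/129-. It was lower in each clone, at 92.1% (87.7 to 96.6), 68.2% (63.5 to 73.3) and 51.1% (47.0 to 55.5), and at equal depth 91.2%, 71.7% and 54.5%. With counts divided by 4 the CAST+/129- interval was 83.5 to 101.5 and reached wild type. The last annotated Aebp2 interval, 1082 bases long, held 16, 2, 3 and 4 alignments in wild type, CAST+/129-, CAST-/129+ and CAST-/129-, and the interval before it, 4726 bases long, held 3155, 1243, 440 and 324. The longest annotated 3′ end therefore held few alignments in all 4 libraries.

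With counts divided by 4, the interval of CAST-/129- against wild type ended below 100% for each of the 8 genes, the highest end being 99.6% at Eed. These intervals cover counting error only, and the spread between clones of the same genotype was not measured. Introns of the 8 genes held between 0 and 184 alignments per library, so that unspliced RNA could not be followed. CAST-/129- was below both monoallelic clones for 7 of the 8 genes, with upper ends of the ratio below 100% for 6 of them against both clones, and Ezh1 was level with CAST-/129+ (100.2%, 80.1 to 125.3). The share of all genes with this order was not counted, so that these numbers are a description of the 8 genes.

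By the distance between the 3 log2 ratios, the genes with a mean of at least 5 FPKM nearest to Suz12 were Insig1 (0.0396), Mettl22 (0.0432) and Gm8935 (0.0433). Nearest to Ezh2 were Dnajc17 (0.0155), Gpatch3 (0.0346) and Pop1 (0.0430), and nearest to Jarid2 were Ppp1r9a (0.0186), Chtf18 (0.0402) and Gm13819 (0.0470). None of the 8 PRC2 genes was among the 3 nearest to another of these.

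The other genes of PRC2 did not share the lower values as a group. Of 8 such genes 5 passed 5 FPKM, with a median log2 ratio of 0.36 in CAST-/129- (0.16 at equal depth). Epop (listed as E130012A19Rik), a PRC2 partner that also binds elongin, was at 117.3 FPKM in wild type against 85.9 for CAST+/129-, 71.3 for CAST-/129+ and 51.1 for CAST-/129-. At log2 -1.14 it was the only 1 of the 5 at least 1.5-fold lower there (background 15.3%), as it was at equal depth (48.3% of wild type, background 10.7%). The histone chaperone Rbbp7 went the other way, at 84.8, 118.9, 134.8 and 136.7 FPKM, and was 1.5-fold higher in CAST-/129- (log2 0.66, background 9.87%, and 0.38 at equal depth, which is under 1.5-fold). Its paralog Rbbp4 was at 29.6, 31.2, 33.4 and 36.5 FPKM, and the elongin genes Elob and Eloc, shared with other complexes, had log2 ratios of 0.50 and 0.36 in CAST-/129- (0.16 and 0.18 at equal depth).

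PRC1, which ubiquitinates histone H2A and acts with PRC2, had a median log2 ratio of -0.06 in CAST-/129- over the 19 of 25 genes past 5 FPKM. Of the 19, 1 gene was at least 1.5-fold lower (Pcgf2, -0.79, background 15.3%) and 2 were higher (Bcor, 0.87, and Pcgf5, 0.86, background 9.87%). The higher count was near the background and the lower count was under it. The median was 0.02 at equal depth, with 1 gene lower and 3 higher, Phc2 (0.69) being the third. Of 9235 background genes at equal depth, 985 were lower and 1073 higher. Of the demethylases that remove the PRC2 mark, Kdm6b was at 25.9 FPKM in wild type and at 9.81, 10.2 and 13.5 in CAST+/129-, CAST-/129+ and CAST-/129-, and Kdm6a was at log2 -0.05 in CAST-/129- (0.09 at equal depth). The Kdm6b ratio in CAST-/129- was -0.77, and -0.58 at equal depth, which is under 1.5-fold. Over 20 genes of S phase the median was 0.0 in CAST-/129- (-0.16 at equal depth), with 2 genes at least 1.5-fold lower (Cdt1, -0.77, and Gins2, -0.62, background 15.3%) and 3 at equal depth (background 10.7%). Whether the share of cycling cells differed between clones was not tested.

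Of 26 known PRC2 targets, 8 passed 5 FPKM. In CAST-/129- 6 of these were at least 1.5-fold higher (background 9.87%) and 2 lower (15.3%), with a median log2 ratio of 1.64 (1.75 at equal depth, with the same counts). T, the mesoderm regulator brachyury, was at 0.417 FPKM in wild type and at 3.15, 10.2 and 36.2 in CAST+/129-, CAST-/129+ and CAST-/129-. Hand1, a regulator of trophoblast and heart, was at 0.523 FPKM in wild type and at 43.8, 43.7 and 19.7 in CAST+/129-, CAST-/129+ and CAST-/129-, and Gata6, a regulator of primitive endoderm, was at 42.9 and at 2.93, 6.75 and 4.50. Targets that pass the filter only through libraries in which they are high had to differ. T and Hand1 passed through the clones, and 2 of the 8 targets passed only with CAST-/129-. The counts of the 8 thus describe them and are no result beside the background. Without the filter, 16 of the 26 targets were above wild type in CAST-/129-, some on few alignments, and no background share was counted for this. The ESC markers, which all stood above 5 FPKM in every library, had a median of -0.37 in CAST-/129- (-0.49 at equal depth) and went both ways. Of these, 3 were at least 1.5-fold lower (Zfp42, -1.75, Nanog, -1.65, and Fgf4, -1.13, background 15.3%) and 1 was higher (Lin28a, 0.98, background 9.87%). At equal depth 4 were lower and 1 was higher, against 985 and 1073 of 9235 background genes.

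**Figure D5:**
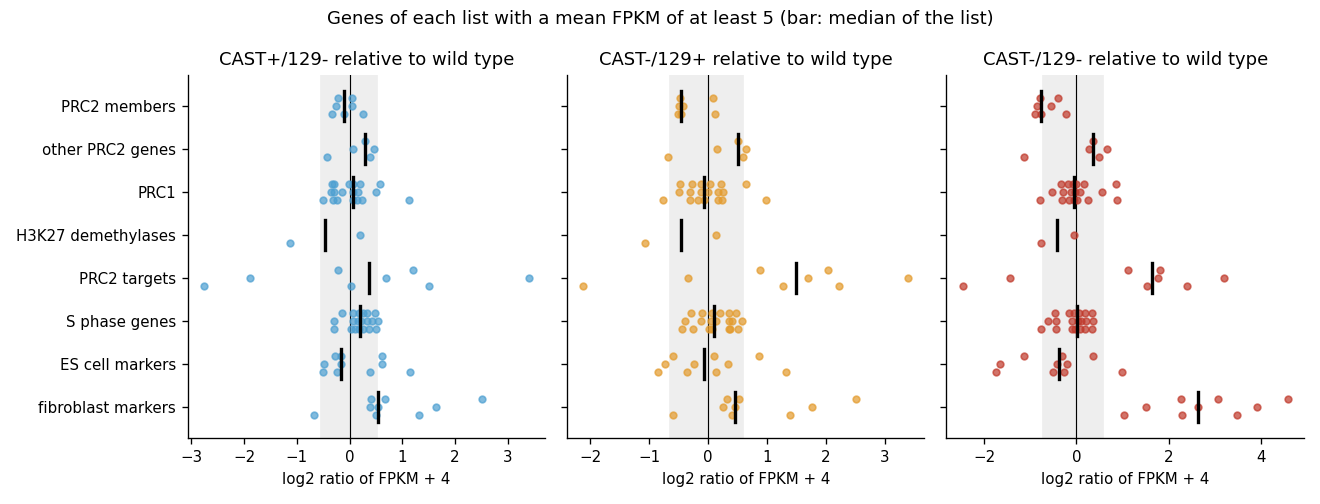
log2 ratio of FPKM plus 4 relative to wild type (horizontal axis) of single genes (points) with a mean of at least 5 FPKM, by list, in the 3 mutant clones, with the median of each list as a bar and the middle 80% of 9521 background genes in grey. The 7 PRC2 members in CAST-/129- have a median of -0.76, and the 9 fibroblast markers, of which 5 pass the filter only through that library, one of 2.63.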

How the data were processed

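The 8 genes, the lists and the thresholds were chosen with earlier results of these data known. The authors mapped RNA-seq reads (strand-specific, polyadenylated RNA) with Novoalign and ChIP-seq reads with Bowtie to mm9, and they deposited 1 line for each distinct aligned position, with the count of its reads. Versions are not given in the sources used here. From these files distinct alignments were counted by midpoint on the sense strand (opposite to the listed strand) within exons of GENCODE M1 (NCBIM37), leaving out bases shared by genes of the strand, for genes with at least 200 such bases. Ratios are log2 of FPKM plus 4, with 3-fold after the study's methods and 1.5-fold as a second threshold, over genes with a mean of at least 5 FPKM. Alternatives changed the counting unit, depth, strand, library size, pseudo-value, threshold, filter and bases counted.

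ChIP-seq was counted by 5′ ends of distinct alignments in 2 kb on each side of a start, over the genome mean of the library, with no input. A domain is the run of 500-base bins at least 5 times the mean around a start, with gaps of 1 bin. Genes named besides the 8 are those with the largest ratio in CAST-/129- of each list, up to 4 per list, with Sox2, Pou5f1, Dnmt3l, Thy1 and Rbbp4 (the last 4 added after their values were seen) and the 3 genes nearest to Suz12, Ezh2 and Jarid2. The depth of the RNA-seq libraries was 7557984 to 33684661 distinct alignments, and of the ChIP-seq libraries 1576875 to 7743500. Intervals are exact 95% intervals and cover counting error only. The rules were tested on simulated independent counts drawn from the wild type means. That simulation held no collapsing and no linked mates or spliced segments, so that it could not show their effect on the ratios or intervals. The tools were matplotlib 3.10.9, scipy 1.17.1, pandas 2.3.3, numpy 2.4.6 and Python 3.11.15.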

Additional observations from a re-analysis of the deposited data

How the results depend on the processing

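No paired analysis was possible because each group holds 1 library, and for the same reason no replicate could be left out. Of 144 recounts of PRC2 genes or starts past a threshold, 135 stayed within 1.5 times the value given. Many of these set 0 against 0, because no setting took a gene past 3-fold or 1.5-fold higher (log2 ratios from -1.31 to 0.3). The share is therefore no measure of stability. The number of genes at least 1.5-fold lower in CAST-/129+ was 3 by reads before collapsing (9.02% of all genes), 3 at equal depth (8.90%), 2 with a pseudo-value of 1 (16.8%) and 2 on the 3′-most exon interval, against 0 (12.2%). In CAST+/129- it was 1 by reads (8.46%) and 1 on the 3′-most exon interval, against 0 (8.93%). The 3′-most interval was not counted for all genes. In CAST-/129- 0 genes passed a 2-fold threshold by distinct alignments (4.88% of all genes), against 2 at equal depth (3.62%) and 3 by reads (3.64%). Of the log2 ratios of single PRC2 genes under other settings, 257 stayed within the counting interval of the value given, 78 lay outside it, among them changes of sign of Ezh2 in both monoallelic clones and Eed in CAST-/129+, and 1 value of at least 1.5-fold turned direction. At 20 times the mean, 3 starts passed in H3K4me3 (4.94% of all starts), with Ezh2 just under it, and 1 in J1 H3K27ac (2.23%). Aebp2 in CAST-/129- turned to a log2 ratio of 0.01 on its 3′-most interval, which holds 16 wild type alignments. Over 14 settings Suz12 in CAST-/129- ranged from -1.30 to -0.81. The 3′-most interval and the 2-fold threshold at equal depth and by reads were added after the data were seen. The sizes of the ratios depended on depth and collapsing, and the cause of the differences between clones was not tested.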
